A study of Homo sapiens with 8 samples.

Results

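Natural antisense RNAs were examined in RD-ES, a Ewing sarcoma cell line, that carries an inducible USP6 gene. A member was any gene symbol ending in -AS and a digit whose highest row in the deposited count table held at least 50 reads over the 8 libraries. This left 51 antisense RNAs of 22257 gene symbols. In all, 83 symbols carried that ending, and 8 of them had 0 reads. Members were thus chosen by their read total alone, so their levels are given as a description. Just inside the limit stood RFPL3-AS1 with 67, MCF2L-AS1 with 54 and MRPL23-AS1 with 52 reads. Just outside it were GRIK1-AS2 with 41, DNAJC27-AS1 with 39 and CECR5-AS1 with 33 reads. The sense gene, the symbol in front of -AS, was in the table for 50 of the 51 members and was read beside each one. ST7 is the sense gene of both ST7-AS1 and ST7-AS2, which makes 49 different sense genes.

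USP6 is a deubiquitinating protease and an oncogene. All 4 groups were RD-ES/USP6 cells, a pool and not a single clone, in which a stably introduced USP6 is driven by a doxycycline promoter, and each group had 2 libraries. One group received doxycycline and then 1000 U/mL interferon alpha for 24 h (both treatments), one doxycycline without interferon, one interferon alpha without doxycycline, and one neither (untreated). Doxycycline preceded interferon by 24 h, and how long the cells without interferon were kept on it is not stated. No doxycycline-treated cells without the transgene were analysed here, so effects of the drug and of USP6 cannot be told apart. Nothing in the labels tells whether the replicates came from separate cultures. The p-values speak for the spread between these libraries, and that spread may be technical.

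A natural antisense RNA is transcribed from the strand opposite to another gene. It may overlap the exons of that gene, start beside its promoter and run away from it, or lie within an intron. Some members of the class act on the sense gene in cis, by way of chromatin, splicing or RNA stability. Others, such as ZNFX1-AS1, which RefSeq calls ZFAS1, mainly carry small nucleolar RNAs in their introns. Libraries were made with a kit that keeps the strand of total RNA, but whether the counting used the strand is not stated. Where exons overlap, reads of a sense gene and its antisense RNA may therefore not be told apart, and this applies to every pair below.

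The pairs differed in their arrangement. GENCODE placed both genes for 42 of the 51 members, always on opposite strands. Exons overlapped in 35 pairs and gene bodies without exons in 3, and 4 pairs lay apart with starts within 1000 bases of each other. In 11 pairs of any layout the starts were that close. The layout of the other 9 was not known from GENCODE, but RefSeq gene bodies overlapped in 3 of them, PCNA-AS1, FAS-AS1 and PEG3-AS1. RefSeq held 47 of the 51 members, 41 of them as lncRNA, 4 as antisense RNA and 2 as transcribed pseudogenes, and it used another symbol for 11. Of the members it did not hold, HNRNPU-AS1 is now listed there as a synonym of its own sense gene HNRNPU, and HOXB13-AS1 as a synonym of the protein-coding PRAC2. FBXO22-AS1 and AKIRIN2-AS1 were held by neither RefSeq nor GENCODE, so their pairing rests on the symbol alone.

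Promoter windows from RefSeq (GRCh38.p14), from 250 bases before to 50 bases after the start of the gene, were found for 33 members and 38 sense genes. These 5 were picked from the windows at RNAs described below: the antisense RNA of FAS, the interferon-induced sense gene HLA-F, and ZNFX1-AS1, PCNA-AS1 and LGALS8-AS1. Windows of other described RNAs are not shown, among them that of HNRNPU, which also holds a match to the response element. Capitals mark a match, on either strand, to the interferon-stimulated response element (GAAA, any 2 bases, GAAA) in FAS-AS1 and HLA-F, and to TTCNNNGAA, the GAS element bound by STAT dimers, in LGALS8-AS1. The sequence of ZNFX1-AS1 is that of ZFAS1.
FAS-AS1, chr10:88992926-88993225, minus strand: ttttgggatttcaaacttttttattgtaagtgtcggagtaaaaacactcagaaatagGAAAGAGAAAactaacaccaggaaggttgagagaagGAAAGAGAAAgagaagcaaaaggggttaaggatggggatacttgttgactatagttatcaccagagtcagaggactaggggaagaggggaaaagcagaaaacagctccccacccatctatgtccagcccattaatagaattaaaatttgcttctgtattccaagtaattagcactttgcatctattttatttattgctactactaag
HLA-F, chr6:29723184-29723483, plus strand: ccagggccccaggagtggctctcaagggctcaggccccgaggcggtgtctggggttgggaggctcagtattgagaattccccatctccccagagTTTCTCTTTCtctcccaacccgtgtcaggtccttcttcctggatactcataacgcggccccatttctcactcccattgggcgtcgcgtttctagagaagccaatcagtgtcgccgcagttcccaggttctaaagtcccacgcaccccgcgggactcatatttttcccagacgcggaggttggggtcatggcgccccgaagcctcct
ZNFX1-AS1, chr20:49278392-49278691, plus strand: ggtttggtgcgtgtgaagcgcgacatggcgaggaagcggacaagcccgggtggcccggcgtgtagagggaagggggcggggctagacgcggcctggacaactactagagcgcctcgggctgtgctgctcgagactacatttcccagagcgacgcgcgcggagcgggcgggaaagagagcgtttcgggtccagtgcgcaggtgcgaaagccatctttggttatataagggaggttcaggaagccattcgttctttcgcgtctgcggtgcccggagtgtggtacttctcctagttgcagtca
PCNA-AS1, chr20:5119336-5119635, plus strand: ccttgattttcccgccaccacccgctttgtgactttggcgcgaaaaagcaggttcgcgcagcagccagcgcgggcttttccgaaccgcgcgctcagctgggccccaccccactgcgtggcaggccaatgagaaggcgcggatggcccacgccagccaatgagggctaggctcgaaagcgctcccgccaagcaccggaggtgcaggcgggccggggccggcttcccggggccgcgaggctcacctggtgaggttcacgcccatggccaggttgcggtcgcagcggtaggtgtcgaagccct
LGALS8-AS1, chr1:236524459-236524758, minus strand: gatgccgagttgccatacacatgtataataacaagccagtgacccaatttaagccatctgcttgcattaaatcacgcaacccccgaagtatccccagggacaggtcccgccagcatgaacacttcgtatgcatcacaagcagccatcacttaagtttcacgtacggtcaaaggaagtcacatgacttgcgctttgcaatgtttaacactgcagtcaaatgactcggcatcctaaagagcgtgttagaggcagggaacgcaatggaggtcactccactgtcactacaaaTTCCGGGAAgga

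The response element was matched in 3 of the 33 member promoters (9.09%), those of FAM13A-AS1, FAS-AS1 and FMR1-AS1, against 3.65% of all 27305 promoter windows. Among sense genes 3 of 38 held it (7.89%), namely HLA-F, HNRNPU and FMR1. The windows of FMR1-AS1 and FMR1 overlap, and their match is the same site read from opposite strands, so it enters both shares. GAS was matched in 3 member promoters (9.09%), against 7.88% of all windows. The NF-kB letters (GGG, any 5 bases, CC) were in 19 (57.6%), against 58% of all windows, and the AP-1 letters TGANTCA in 0, against 7.76%. The ATF4 composite letters TGATGNAA were in 1 (3.03%), against 3.67% of all windows. Both strands were searched, and matches of different motifs were allowed to overlap. These are matches of letters and not measured binding sites.

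USP6, the induced gene, read 409 and 377 CPM (read counts scaled to a common library size) with both treatments, 569 and 558 CPM with doxycycline, 9.17 and 10.3 CPM with interferon, and 9.88 and 8.77 CPM in untreated cells. The doxycycline libraries stood far above the others, as their labels say. Reads of USP6 can be shared with USP32 and the TBC1D3 family, so the level is uncertain to that extent. The libraries held between 9304569 and 11984196 reads in the rows used. A floor of 3 reads lay between 0.25 and 0.326 CPM. In no group did the replicates agree within sampling noise (chi-square divided by its degrees of freedom 4.1 to 8.57). All 12 Ewing sarcoma markers were read in all libraries at 1 CPM or more. Their levels differed widely, from CD99 at 2.22 to 3.06 CPM and NR0B1 at 5.46 to 11.4 CPM up to CCND1 at 1022 to 1517 CPM. The summed leukocyte, endothelial, epithelial and muscle markers each stayed at or under 4.3 CPM in every library, and 1 of 3 muscle markers was at 0 throughout. Summed fibroblast markers read 28.5 to 32.8 CPM with both treatments, 29.9 to 31.0 CPM with doxycycline, 27.4 to 31.2 CPM with interferon and 23.8 to 25.7 CPM in untreated cells, and the part of this in any result was not tested. How far a library deviated from the gene means followed GC content with a Spearman's rho across genes of -0.64 and 0.05 with both treatments, -0.48 and 0.35 with doxycycline, 0.31 and 0.03 with interferon, and 0.58 and 0.12 in untreated cells. Genes are not independent replicates, so no p is given for these values.

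Most of the antisense reads came from a few RNAs. The median member had 328 reads over the 8 libraries, against 2491 for the median sense gene. Of the 51 members, 13 had more than 1000 reads and 16 had at most 200. C17orf76-AS1, HNRNPU-AS1, PEG3-AS1 and ZNFX1-AS1 together held 65.9% of all member reads. C17orf76-AS1, called SNHG29 in RefSeq, is a host of small nucleolar RNAs. It was the highest, with 392 and 411 CPM with both treatments, 452 and 445 CPM with doxycycline, 401 and 399 CPM with interferon, and 424 and 440 CPM in untreated cells. By small margins, the libraries with both treatments and with interferon lay below the untreated ones and those with doxycycline above. Its log2 difference between both treatments and untreated was -0.11 (edgeR adjusted p = 0.4), and among the alternatives tried it was called with the GC and length correction alone.

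Scaled to transcript length, C17orf76-AS1 stayed highest at a mean of 414 CPM per kb, followed by ZNFX1-AS1 at 133, RUSC1-AS1 at 39.6, TRAF3IP2-AS1 at 29.5, IDI2-AS1 at 20.3, MCM3AP-AS1 at 15.0 and TP73-AS1 at 12.2 CPM per kb. For RUSC1-AS1 and TRAF3IP2-AS1 the length is a median over annotated transcripts of the symbol and not that of the counted transcript, so their places are less certain. HNRNPU-AS1, PEG3-AS1, FBXO22-AS1 and PCNA-AS1, which are also among the 10 highest by CPM, had no length in the annotation and are left out of this order. At the other end of the scale, MRPL23-AS1 lay between 0.0956 and 0.997 CPM, around the floor of 3 reads.

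The sum of all 51 members hardly moved. It was 1249 and 1271 CPM with both treatments, 1298 and 1280 CPM with doxycycline, 1285 and 1327 CPM with interferon, and 1268 and 1337 CPM in untreated cells. All groups overlapped with untreated. Among the 13 members with more than 1000 reads, the highest library was between 1.13 and 4.07 times the lowest. The highest ratio was that of PCNA-AS1, and apart from it and PEG3-AS1 the other 11 stayed within 1.54 times.

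**Figure D1:**
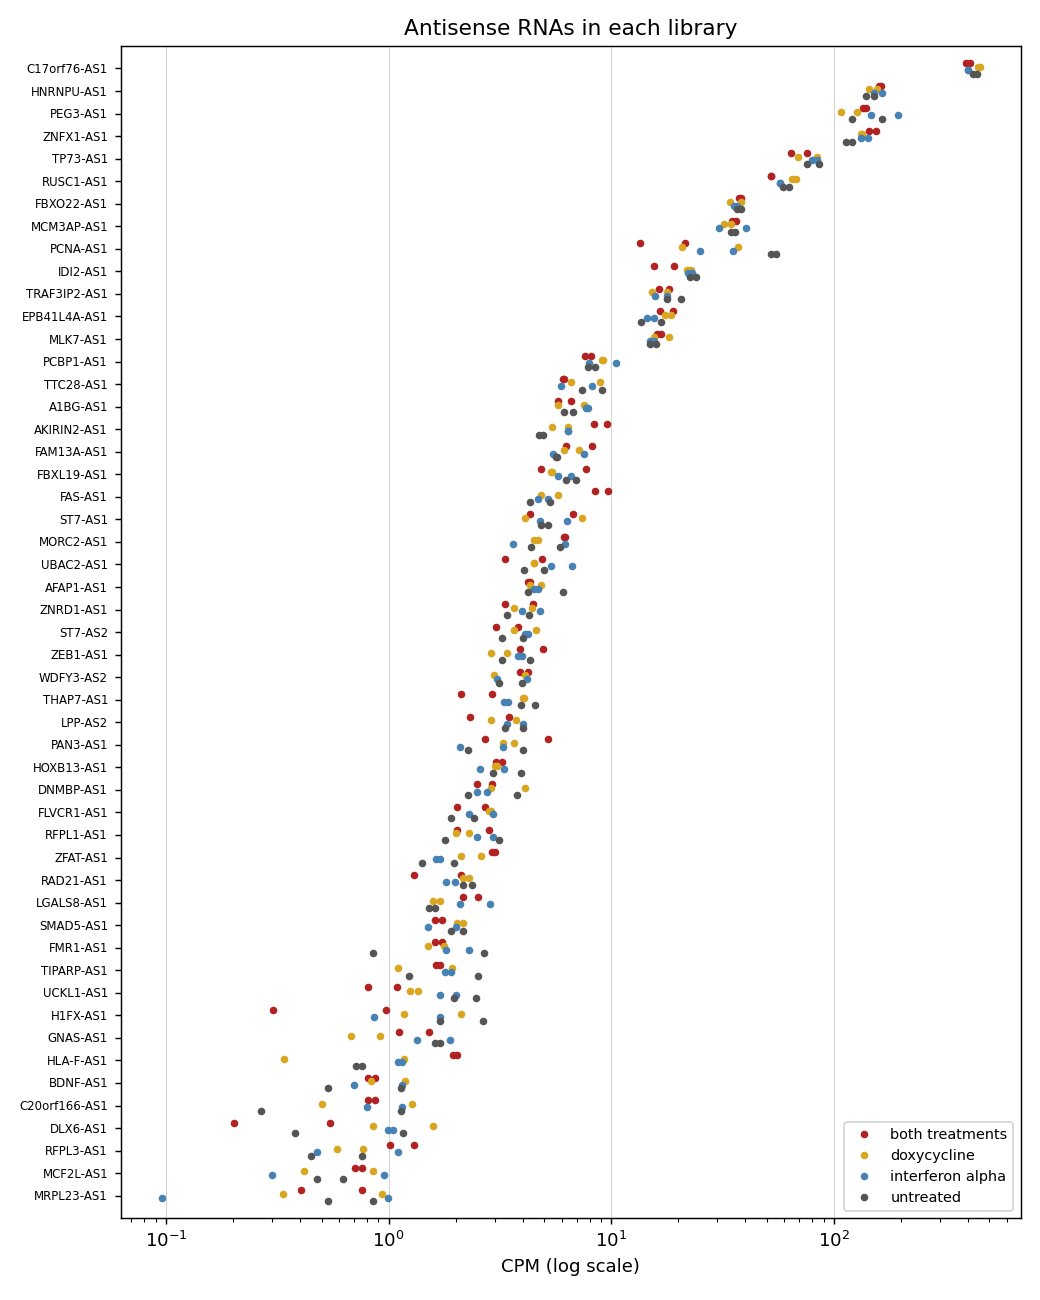
Each row is 1 of the 51 antisense RNAs, ordered by mean level, and each point is the CPM of 1 library on a log axis, coloured by group. C17orf76-AS1 stands at the top near 400 CPM, PCNA-AS1 has its untreated libraries apart on the right at 55 and 52.4 CPM, and points spread widely where levels are under about 1 CPM.

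Single treatments changed no antisense RNA past the threshold. Counts were tested for all 14601 genes that passed the filter on low counts, by the quasi-likelihood test of edgeR with Benjamini-Hochberg adjustment, and a gene was called at an adjusted p under 0.05. The filter passed 50 of the 51 members (MCF2L-AS1 was left out) and 46 of the 49 sense genes (RFPL1, RFPL3 and C20orf166 were left out). Interferon over untreated gave 0 calls by edgeR among the 50 tested members, 2 at an unadjusted p under 0.05 and 1 by DESeq2. Of all genes, edgeR called 2.12%, and 11.6% had an unadjusted p under 0.05. Doxycycline over untreated gave 0 calls by edgeR, 4 at an unadjusted p under 0.05 and 1 by DESeq2, beside 0.815% of all genes called and 13.6% under the unadjusted limit. The DESeq2 call in each was PCNA-AS1.

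Adding interferon to doxycycline gave 0 calls by edgeR, 9 at an unadjusted p under 0.05 and 0 by DESeq2, against 3.33% of all genes called and 15.5% under the unadjusted limit. Adding doxycycline to interferon gave 0 by edgeR, 6 at an unadjusted p under 0.05 and 0 by DESeq2, against 1.34% and 14.9% of all genes. The interaction of the treatments gave 0 by edgeR, 2 at an unadjusted p under 0.05 and 0 by DESeq2, against 0.171% and 1.97% of all genes. Median log2 changes of the tested members over these 5 comparisons, in that order, were 0.01, 0.01, -0.05, -0.09 and -0.06.

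Members with few reads had wider errors, and the part of depth in these counts was not tested. The median SE of a member's log2 change was 0.26 for interferon over untreated, against 0.16 over all genes and 0.14 over the sense genes. In the comparison of both treatments with untreated it was 0.14 for members with more than 1000 reads and 0.47 for those with at most 200.

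With both treatments over untreated, 5 of the 50 tested antisense RNAs were called, 3 higher and 2 lower. Of all genes 13.9% were called, 7.12% higher and 6.73% lower, so the members' share of 10% is no higher than the background. DESeq2 called 2 of them, PCNA-AS1 and ZNFX1-AS1, and 11 members had an unadjusted edgeR p under 0.05, against 30.1% of all genes. Libraries of the groups did not overlap for 11 members that were higher and 11 that were lower with both treatments, against 28.1% and 28% of all genes. The median log2 change was -0.06 over the tested members and -0.02 over all genes. In bulk RNA, fewer cells making an RNA and less of it per cell cannot be told apart.

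**Figure D2:**
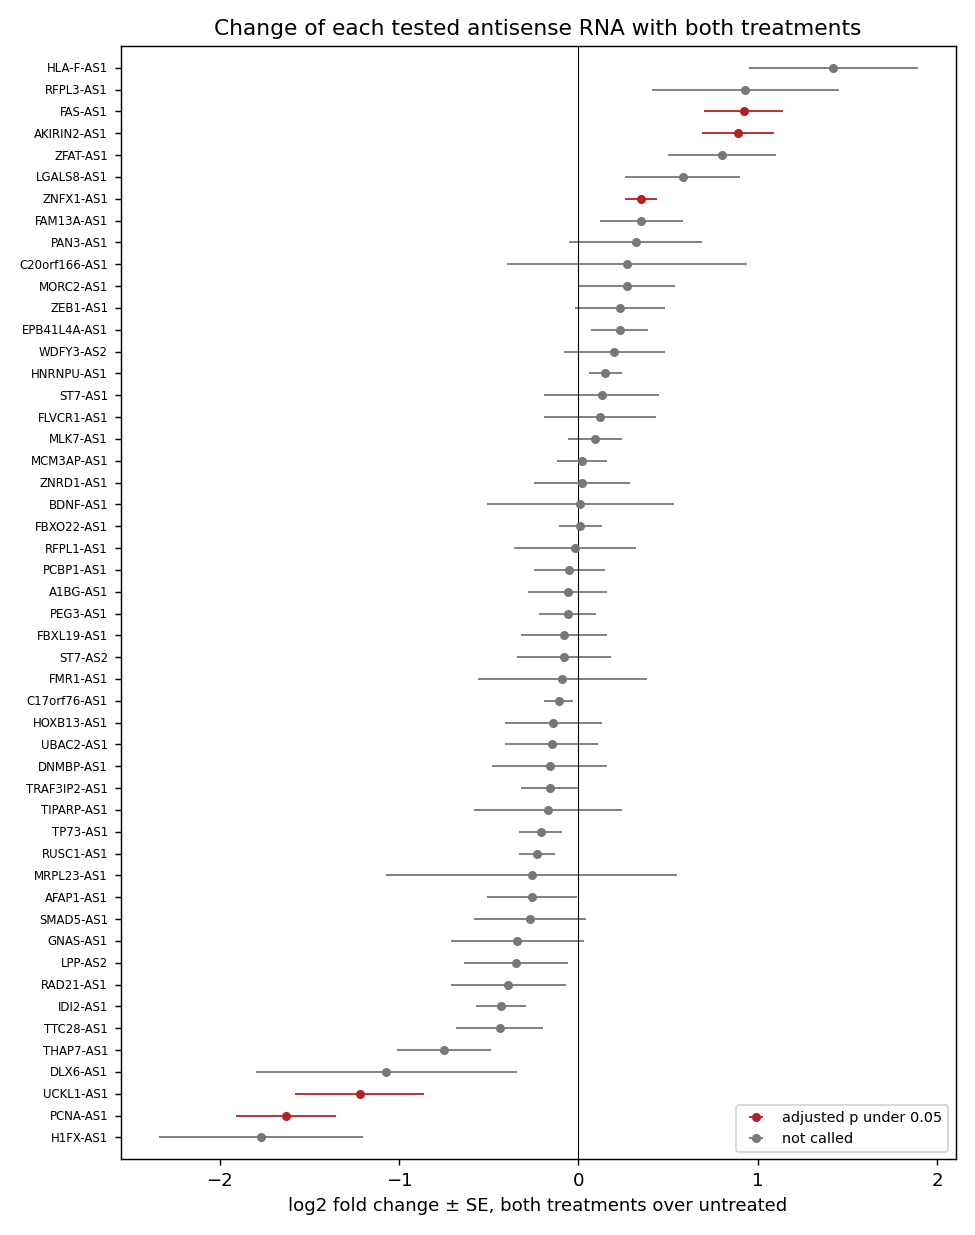
Points give the log2 fold change of both treatments over untreated for each of the 50 tested antisense RNAs, bars the SE, and red points those with an adjusted p under 0.05. PCNA-AS1 at -1.63 and UCKL1-AS1 at -1.22 are called on the lower side, AKIRIN2-AS1, FAS-AS1 and ZNFX1-AS1 between 0.35 and 0.92 on the higher side, and H1FX-AS1 and HLA-F-AS1 lie farther out than most of these with wide bars and no call.

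PCNA-AS1 fell most among the called RNAs. It runs opposite to PCNA, the sliding clamp that holds DNA polymerase on its template. PCNA-AS1 read 13.5 and 21.4 CPM with both treatments, 20.8 and 37.1 CPM with doxycycline, 25.1 and 35.2 CPM with interferon, and 55 and 52.4 CPM in untreated cells. Both untreated libraries lay above all others, and the libraries with both treatments overlapped with those given doxycycline alone. The log2 change with both treatments over untreated was -1.63 ± 0.28 (edgeR adjusted p = 0.0035). Without replicate 1 of both treatments it was -1.32 and no longer called (edgeR adjusted p = 0.057).

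The single treatments gave PCNA-AS1 similar values, without a call by edgeR. The log2 change was -0.89 ± 0.26 with doxycycline over untreated (edgeR adjusted p = 0.19) and -0.83 ± 0.26 with interferon over untreated (edgeR adjusted p = 0.21). By DESeq2 these had adjusted p-values of 0.023 and 0.042. With each library left out the doxycycline change lay between -1.37 and -0.53, and it was called only without replicate 2 of doxycycline, at -1.37. The interaction was 0.10 ± 0.39 (edgeR adjusted p = 1).

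PCNA itself read 206 and 191 CPM with both treatments, 298 and 293 CPM with doxycycline, 225 and 286 CPM with interferon, and 317 and 380 CPM in untreated cells. Both untreated libraries were again above every other. PCNA fell with both treatments over untreated, with a log2 change of -0.81 ± 0.12 (edgeR adjusted p = 0.0016). It also fell by 0.58 with both treatments over doxycycline (SE 0.12, edgeR adjusted p = 0.026), a call lost without any 1 of these 4 libraries, at changes from -0.61 to -0.51. As a share of the reads of the pair, PCNA-AS1 had 6.17% and 10.1% with both treatments, 6.51% and 11.2% with doxycycline, 10.1% and 11% with interferon, and 14.8% and 12.1% in untreated cells. The share was highest in the untreated libraries, and the 3 treated groups overlapped.

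UCKL1-AS1, opposite the uridine-cytidine kinase-like gene UCKL1, was the weakest call. It read 0.806 and 1.09 CPM with both treatments, 1.25 and 1.36 CPM with doxycycline, 1.7 and 2.01 CPM with interferon, and 2.47 and 1.97 CPM in untreated cells. The log2 change with both treatments over untreated was -1.22 ± 0.36 (edgeR adjusted p = 0.044). Leaving out any library in turn ended the call, at changes from -1.44 to -1.01. Its annotated transcript has a GC content of 61.9%, above the member median of 49.0%, and with each library's GC and length trend removed the change was -0.85 (edgeR adjusted p = 0.11). UCKL1 had a change of -0.77 and no call (edgeR adjusted p = 0.079).

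ZNFX1-AS1 rose slightly beside a sense gene that rose strongly. ZNFX1 encodes an interferon-stimulated helicase that binds viral double-stranded RNA, and the annotated starts of the pair are 248 bases apart on opposite strands. The exons of the pair overlap in GENCODE, while the gene bodies do not overlap in RefSeq. ZNFX1-AS1 read 154 and 144 CPM with both treatments, 133 and 134 CPM with doxycycline, 133 and 143 CPM with interferon, and 113 and 121 CPM in untreated cells. All treated libraries stood above the untreated ones. The log2 change with both treatments over untreated was 0.35 ± 0.09 (edgeR adjusted p = 0.023). That call was lost without untreated replicate 1 at 0.3, without untreated replicate 2 at 0.4 and without replicate 1 of both treatments at 0.31, and with only the groups compared at 0.36 (edgeR adjusted p = 0.057). With interferon over untreated the change was 0.24 ± 0.09 (edgeR adjusted p = 0.29).

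ZNFX1 read 221 and 234 CPM with both treatments, 98.9 and 98 CPM with doxycycline, 188 and 179 CPM with interferon, and 71 and 65.4 CPM in untreated cells. No groups overlapped. It rose by 1.74 ± 0.09 with both treatments over untreated (edgeR adjusted p = 1.3e-07), by 1.43 ± 0.09 with interferon over untreated (edgeR adjusted p = 1.1e-06) and by 1.21 ± 0.08 with both treatments over doxycycline (edgeR adjusted p = 4e-06). With doxycycline over untreated it rose by 0.53 ± 0.09 (edgeR adjusted p = 0.017). This call did not survive the loss of any untreated or doxycycline library or of interferon replicate 2, at changes from 0.45 to 0.59. ZNFX1-AS1 therefore made up 41.1% and 38.2% of the reads of the pair with both treatments, 57.4% and 57.8% with doxycycline, 41.4% and 44.4% with interferon, and 61.4% and 64.9% in untreated cells. With 2 libraries against 2, an exact two-sided permutation test cannot go below p = 0.333, so read shares were not tested.

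FAS-AS1 rose with both treatments. FAS is a death receptor on the cell surface, and FAS-AS1 lies within its gene on the other strand. FAS-AS1 read 9.68 and 8.47 CPM with both treatments, 4.84 and 5.78 CPM with doxycycline, 5.19 and 4.69 CPM with interferon, and 5.32 and 4.3 CPM in untreated cells. The 2 libraries with both treatments lay above all others, and the remaining groups overlapped. The log2 change was 0.92 ± 0.22 with both treatments over untreated (edgeR adjusted p = 0.019), 0.77 ± 0.21 over doxycycline (edgeR adjusted p = 0.083) and 0.88 ± 0.22 over interferon (edgeR adjusted p = 0.089). The call was lost without untreated replicate 2 at 0.77, without replicate 1 of both treatments at 0.82, and by DESeq2 at 0.92 (adjusted p = 0.064). The interaction was 0.73 ± 0.31 with an unadjusted p of 0.038 and an edgeR adjusted p of 1, so a difference of the combined response from the sum of the single ones was not called.

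FAS read 44.6 and 36.4 CPM with both treatments, 22.7 and 22.4 CPM with doxycycline, 31.1 and 28.4 CPM with interferon, and 24.7 and 27.7 CPM in untreated cells. The libraries with both treatments were again highest. FAS rose by 0.84 ± 0.14 with both treatments over doxycycline (edgeR adjusted p = 0.0047). Over untreated the rise was 0.63 ± 0.14 (edgeR adjusted p = 0.014), lost without untreated replicate 1 at 0.55 and without replicate 1 of both treatments at 0.48. The antisense share of the pair was 17.8% and 18.9% with both treatments, 17.6% and 20.5% with doxycycline, 14.3% and 14.2% with interferon, and 17.7% and 13.4% in untreated cells, so the share overlapped between both treatments and doxycycline. The FAS-AS1 window printed above holds the same letters GAAAGAGAAA at 2 places, while the window of FAS held no match to the response element. With interferon over untreated, FAS-AS1 stood at 0.04 and FAS at 0.18, without a call. Other RNAs with a match were HLA-F at 3.05, called, and FAM13A-AS1 at 0.20, FMR1-AS1 at 0.20, FMR1 at 0.29 and HNRNPU at -0.03, not called. Any link between a match and a change was not tested.

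AKIRIN2-AS1 rose, while AKIRIN2, the gene it is named for, was not called. The pairing rests on the symbol alone, since the antisense RNA was not placed by RefSeq or GENCODE. AKIRIN2 is a nuclear protein needed for the import of proteasomes into the nucleus. AKIRIN2-AS1 read 9.58 and 8.36 CPM with both treatments, 6.42 and 5.44 CPM with doxycycline, 6.38 and 6.41 CPM with interferon, and 4.94 and 4.74 CPM in untreated cells. Both libraries with both treatments were above all others, and the single treatments lay between them and untreated. The log2 change with both treatments over untreated was 0.89 ± 0.20 (edgeR adjusted p = 0.016), lost without untreated replicate 1 at 0.92, without untreated replicate 2 at 0.86, without replicate 1 of both treatments at 0.79, and by DESeq2 at 0.9 (adjusted p = 0.061). AKIRIN2 read 24.3 and 24.3 CPM with both treatments, and 22.4 and 20.9 CPM in untreated cells, a change of 0.17 (edgeR adjusted p = 0.46). The antisense share was 28.3% and 25.6% of the pair with both treatments, against 18.1% and 18.5% in untreated cells.

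**Figure D3:**
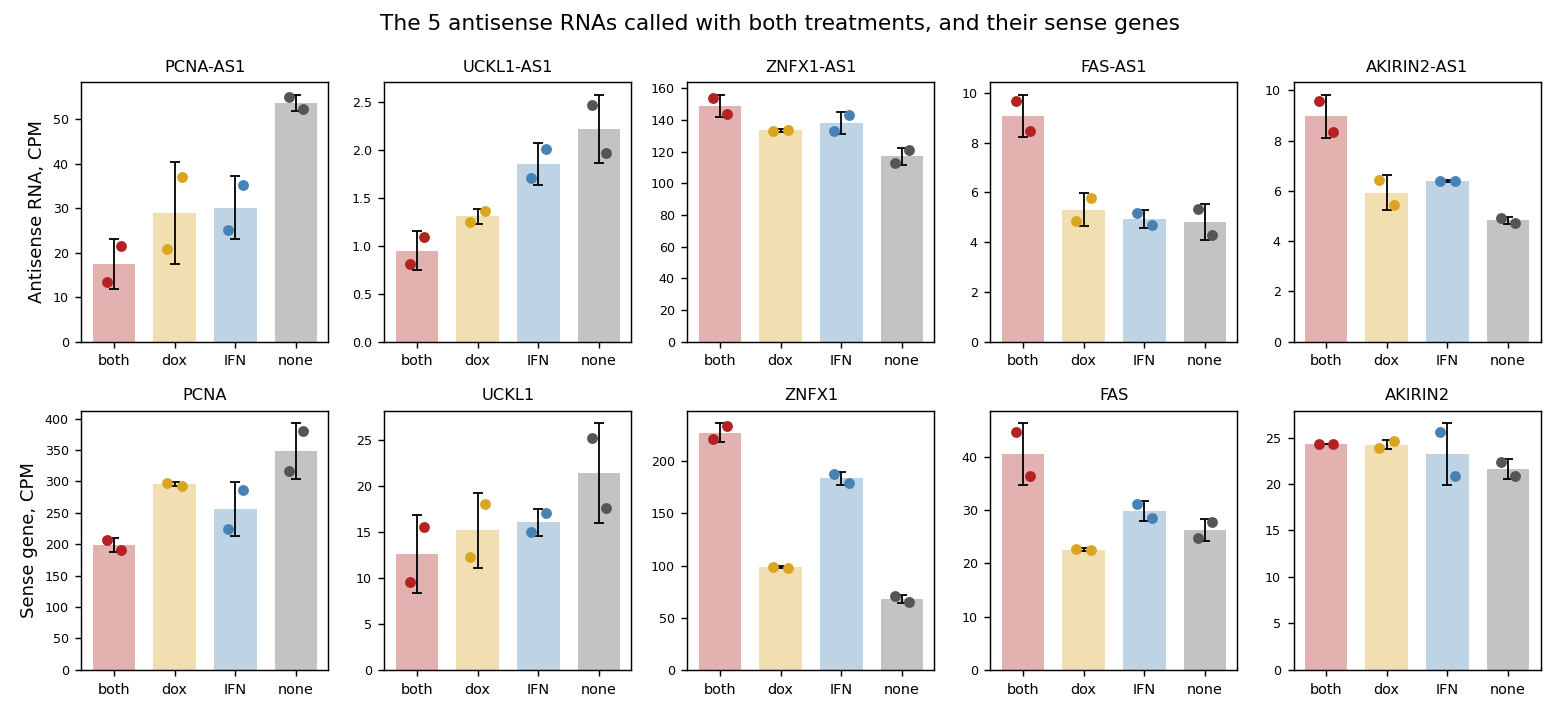
The upper row shows the CPM of the 5 antisense RNAs called with both treatments over untreated, and the lower row their sense genes, with bars for the mean of 2 libraries, whiskers for the SD and points for the libraries. PCNA-AS1 and PCNA are highest in untreated cells, ZNFX1 and FAS are highest with both treatments, and AKIRIN2 differs little between groups while AKIRIN2-AS1 is highest with both treatments.

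HLA-F and HLA-F-AS1 were singled out after their values were seen. HLA-F is a non-classical class I molecule of the major histocompatibility complex. It read 17.7 and 27.3 CPM with both treatments, 2.42 and 3.14 CPM with doxycycline, 14.3 and 11.9 CPM with interferon, and 1.71 and 1.43 CPM in untreated cells. Every group that had interferon stood above every group without it. HLA-F rose by 3.83 ± 0.29 with both treatments over untreated (edgeR adjusted p = 5.3e-06), by 3.01 ± 0.26 with both treatments over doxycycline (edgeR adjusted p = 2.6e-05) and by 3.05 ± 0.30 with interferon over untreated (edgeR adjusted p = 8.2e-05). Other class I genes are similar in sequence, so its reads are uncertain to that extent.

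HLA-F-AS1 read 2.02 and 1.95 CPM with both treatments, 1.17 and 0.34 CPM with doxycycline, 1.1 and 1.15 CPM with interferon, and 0.76 and 0.716 CPM in untreated cells. The libraries with both treatments were highest, and those with doxycycline alone spread across the rest. The log2 change with both treatments over untreated was 1.42 ± 0.47 and missed the threshold (edgeR adjusted p = 0.071), and it passed without either doxycycline library and in the fit of only the 2 groups (edgeR adjusted p = 0.049). The antisense RNA made up 10.2% and 6.69% of the reads of the pair with both treatments, 32.6% and 9.76% with doxycycline, 7.14% and 8.82% with interferon, and 30.8% and 33.3% in untreated cells. Its share was thus low in both groups with interferon, high in untreated cells, and split between the 2 doxycycline libraries. These shares rest on few reads. HLA-F-AS1 had 8 and 8 reads in untreated cells and 14 and 4 with doxycycline, beside 18 and 16, and 29 and 37, for HLA-F.

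More sense genes than antisense RNAs were called. The sense genes also had more reads, and the part of this in the counts was not tested. With both treatments over untreated, 13 of 46 tested sense genes were called, 7 higher and 6 lower, beside the 13.9% of all genes given above. Without replicate 1 of both treatments 4 remained, HLA-F, LPP, PCNA and ZNFX1, while 6 were called without untreated replicate 1 and 8 without untreated replicate 2. Interferon over untreated called 4 sense genes, HLA-F, LPP, WDFY3 and ZNFX1, all higher. LPP, at 0.47 with an edgeR adjusted p of 0.047, and WDFY3, at 0.38 with an edgeR adjusted p of 0.044, lost that call without any 1 of the untreated or interferon libraries. Doxycycline over untreated called ZNFX1 alone, and both treatments over doxycycline called FAS, HLA-F, PCNA and ZNFX1. For both treatments over interferon edgeR called 0 sense genes and DESeq2 0, with 10 at an unadjusted edgeR p under 0.05, and for the interaction edgeR called 0 and DESeq2 0, with 1 at that limit.

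LPP, a LIM protein of focal adhesions, read 102 and 108 CPM with both treatments and 62.5 and 67.3 CPM in untreated cells, a rise of 0.69 ± 0.10 (edgeR adjusted p = 0.0016) with no overlap. LPP-AS2 read 2.32 and 3.48 CPM with both treatments and 3.32 and 4.03 CPM in untreated cells, a change of -0.35 ± 0.29 (edgeR adjusted p = 0.45). It was the only pair of the 13 with opposite signs. The share of LPP-AS2 was 2.23% and 3.12% of the pair with both treatments, 3.79% and 3.49% with doxycycline, 3.69% and 4.24% with interferon, and 5.05% and 5.65% in untreated cells.

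TP73, a p53-family transcription factor, was read at a low level beside an abundant antisense RNA. It read 1.11 and 1.85 CPM with both treatments, and 5.41 and 4.47 CPM in untreated cells, a log2 change of -1.74 ± 0.32 (edgeR adjusted p = 0.0057). Without replicate 1 of both treatments that change was -1.41 and not called. TP73-AS1, which RefSeq lists as the transcribed pseudogene GFOD3P, read 64.1 and 76.2 CPM with both treatments, and 85.9 and 76.2 CPM in untreated cells, a change of -0.21 (edgeR adjusted p = 0.29). It held 98.3% and 97.6% of the reads of the pair with both treatments, against 94.1% and 94.5% in untreated cells.

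ZEB1, a zinc-finger repressor of epithelial genes, rose by 0.78 ± 0.17 with both treatments over untreated (edgeR adjusted p = 0.013), while ZEB1-AS1 changed by 0.23 (edgeR adjusted p = 0.58). The call of ZEB1 was lost without untreated replicate 2 at 0.58 and without replicate 1 of both treatments at 0.85. THAP7, a repressor that binds histone tails, fell, with a log2 change of -1.16 ± 0.22 (edgeR adjusted p = 0.0075), while THAP7-AS1 stood at -0.75 (edgeR adjusted p = 0.081). The call of THAP7 was lost without untreated replicate 1 at -0.96 and without replicate 1 of both treatments at -1.04. The linker histone gene H1FX fell by 1.05 (SE 0.29, edgeR adjusted p = 0.036), and H1FX-AS1 stood at -1.77 with an edgeR adjusted p of 0.063. H1FX lost its call without either untreated library, either interferon library or replicate 1 of both treatments, at changes from -1.27 to -0.68, and by DESeq2 (adjusted p = 0.088). H1FX-AS1 read 0.302 and 0.977 CPM with both treatments, at 3 and 9 reads, and 2.66 and 1.7 CPM in untreated cells. Its change lay between -2.80 and -1.14 with each library left out. The call without replicate 2 of both treatments, at -2.80, rests on the 1 library with 3 reads, at the floor. It was also called with no filter on low counts (edgeR adjusted p = 0.038) and with only the groups compared (edgeR adjusted p = 0.048). The other 4 called sense genes were HOXB13 at -0.74, MRPL23 at -0.72, LGALS8 at 0.35 and WDFY3 at 0.34, and all 4 lost their call without untreated replicate 1 and without replicate 1 of both treatments. LGALS8 also lost it without untreated replicate 2 or either interferon library, at changes from 0.25 to 0.41 over these libraries, and with the GC and length correction at 0.18 (edgeR adjusted p = 0.083). MRPL23 was not called without untreated replicate 2, without either interferon library or with that correction.

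Across the 46 pairs with both genes tested, the signs of the changes with both treatments over untreated were equal in 32 and opposite in 14. Among the 13 pairs with a called sense gene, 12 antisense RNAs had the sign of the sense gene, and in 9 the antisense change was the smaller one. Choosing pairs by the sense call favours a smaller antisense change. Among the called antisense RNAs, PCNA-AS1 (-1.63 against -0.81) and UCKL1-AS1 (-1.22 against -0.77) changed more than their sense genes. So did FAS-AS1 (0.92 against 0.63) and AKIRIN2-AS1 (0.89 against 0.17), while ZNFX1-AS1 (0.35 against 1.74) changed less. In 3 pairs, PCNA, ZNFX1 and FAS, both genes were called. The correlation of antisense and sense log2 changes across the 46 pairs was r = 0.64 (Spearman's rho 0.59), a description of pairs that share libraries and possibly reads. In the 32 pairs with overlapping exons 23 signs were equal, and in the 11 pairs with starts within 1000 bases 7 were equal. For interferon over untreated signs were equal in 31 of 46 pairs, with r = 0.47, and for doxycycline over untreated in 27 of 46, with r = 0.23. For the interaction 22 signs were equal and 24 opposite, with r = -0.04.

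**Figure D4:**
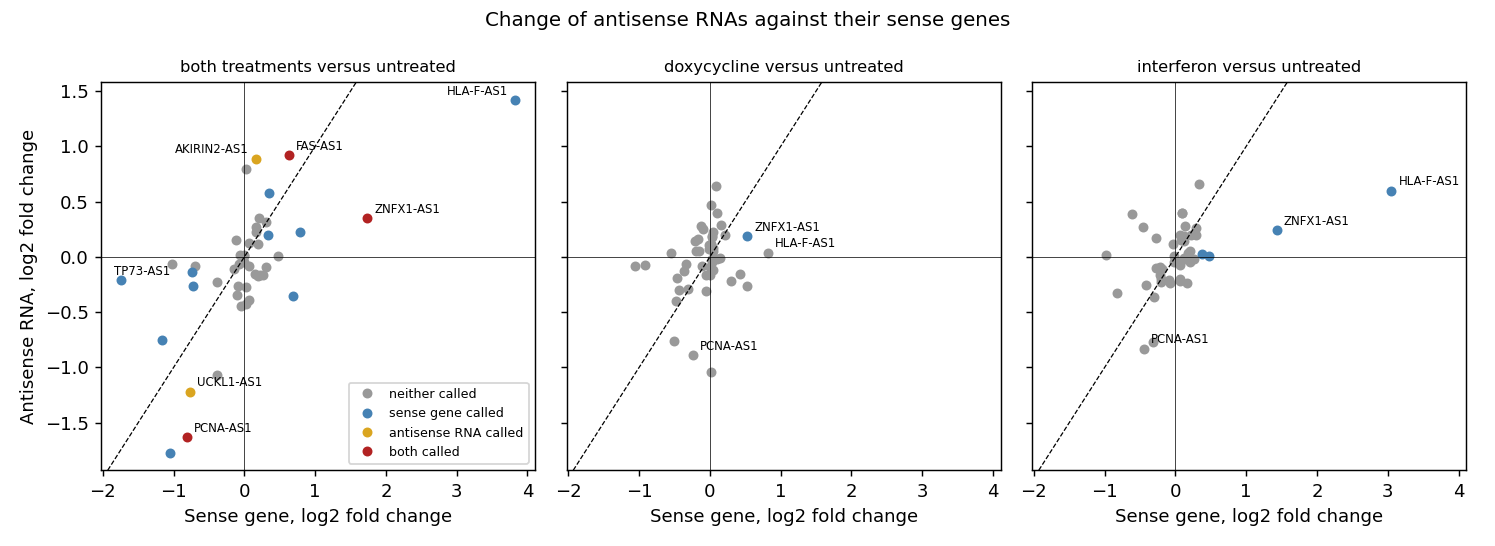
Each point is 1 of 46 pairs, with the log2 fold change of the sense gene on the horizontal axis and of the antisense RNA on the vertical axis, in 3 comparisons with the untreated libraries, and the dashed line marks equal change. HLA-F and ZNFX1 lie far to the right and below the line, PCNA-AS1 lies below and left of the origin near -0.81 and -1.63 with both treatments, and most pairs lie within 0.5 of the origin.

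The antisense RNA held the larger part of the reads in 11 of the 50 pairs. Over all libraries its share ranged from 0.183% to 96.5%, with a median of 13.8%. The pairs differed in whether that share held steady. PEG3 is an imprinted zinc-finger gene expressed from the paternal allele. PEG3-AS1 read 139 and 135 CPM with both treatments, 127 and 108 CPM with doxycycline, 147 and 195 CPM with interferon, and 121 and 164 CPM in untreated cells. Its share of the pair was 14.3% and 14.4% with both treatments, 14.9% and 14.0% with doxycycline, 14.0% and 14.1% with interferon, and 14.1% and 14.5% in untreated cells, so it hardly differed between libraries while the level did. The log2 change of PEG3-AS1 was -0.06, and that of PEG3 -0.07, with both treatments over untreated. With interferon over untreated PEG3-AS1 stood at 0.26 and PEG3 at 0.29, and neither was called in any comparison of the reported fit.

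Similar steadiness was seen for C17orf76-AS1, which held 93.6% to 95.1% of its pair in the 8 libraries, and for FBXO22-AS1, named for an F-box gene, at 26.0% to 27.8%. With the strand of the counting unknown, equal movement of the 2 members of such a pair cannot be told apart from shared reads. HNRNPU-AS1, named for the nuclear RNA-binding protein gene HNRNPU, was less steady. It held 13.7% and 14.4% with both treatments, 14.3% and 13.4% with doxycycline, 14.0% and 12.3% with interferon, and 12.1% and 11.8% in untreated cells. All treated libraries thus lay above the untreated ones.

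**Figure D5:**
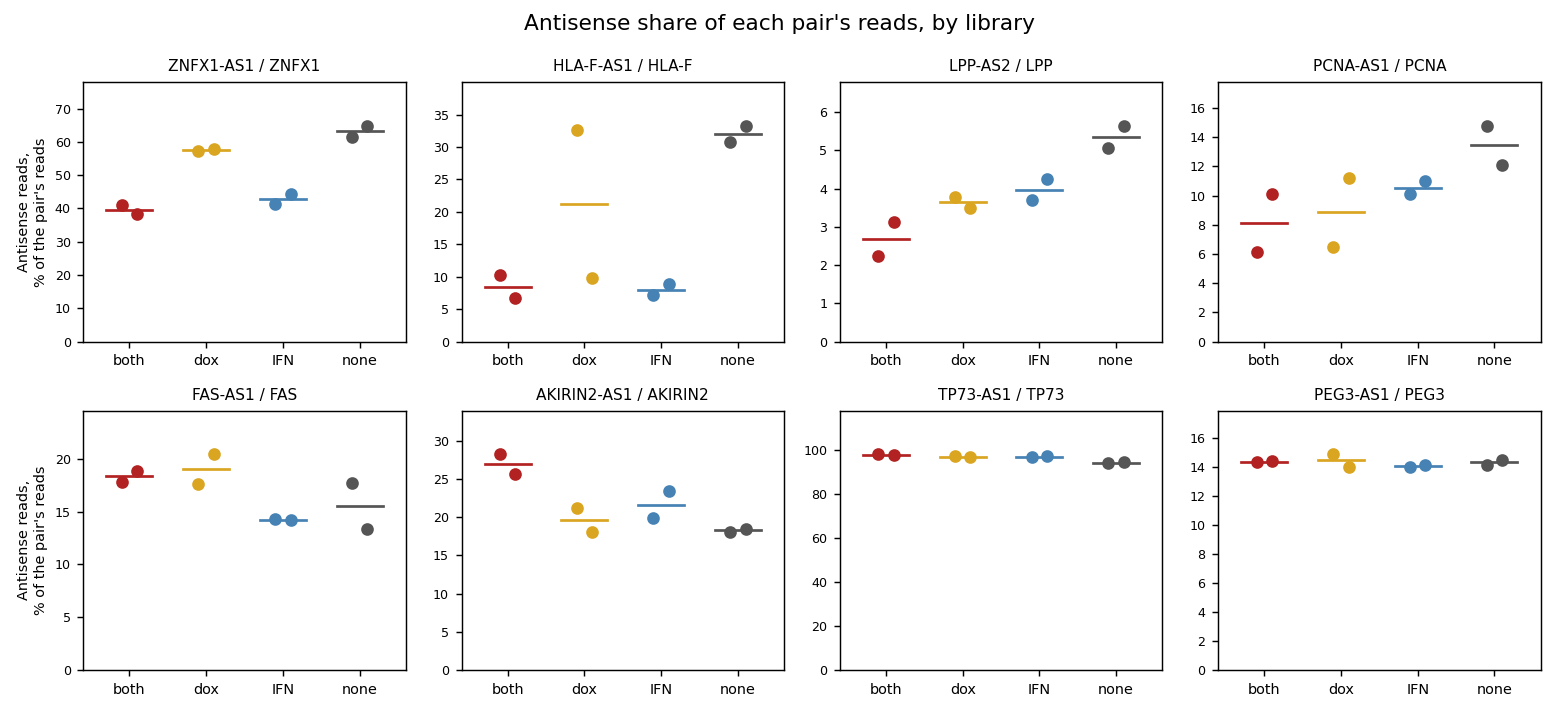
Each panel gives the antisense reads as a percent of the reads of a pair, with 1 point per library and a line at the group mean, on axes that start at 0. The share is low in the groups with interferon for ZNFX1-AS1, and for HLA-F-AS1 the untreated libraries at 30.8% and 33.3% stand with 1 of the doxycycline libraries above the rest, while PEG3-AS1 stays near 14% everywhere.

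The remaining antisense RNAs with the smallest p in a comparison were not called. RUSC1-AS1, opposite the adaptor gene RUSC1, read 52 and 52.3 CPM with both treatments and 67.7 and 64.6 CPM with doxycycline. The 2 groups did not overlap, as was so for 3131 of all 14601 genes that were lower in this comparison. The log2 difference was -0.34 ± 0.10 (edgeR adjusted p = 0.089). LGALS8-AS1, opposite galectin-8, read 2.09 and 2.87 CPM with interferon and 1.61 and 1.52 CPM in untreated cells, a change of 0.66 (edgeR adjusted p = 0.44). ZFAT-AS1, opposite a zinc-finger gene, read 3.02 and 2.93 CPM with both treatments and 1.7 and 1.63 CPM with interferon, a change of 0.84 (edgeR adjusted p = 0.24). These groups did not overlap either, but in these 2 comparisons 3241 and 3367 of all 14601 genes were likewise higher without overlap.

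GNAS-AS1 belongs to the imprinted locus of the stimulatory G protein alpha subunit. It read 0.918 and 0.68 CPM with doxycycline and 1.61 and 1.7 CPM in untreated cells, a change of -1.04 (edgeR adjusted p = 0.28). DLX6-AS1, opposite a homeobox gene, read 0.202 and 0.543 CPM with both treatments, 1.59 and 0.85 CPM with doxycycline, 0.997 and 1.05 CPM with interferon, and 0.38 and 1.16 CPM in untreated cells. Its interaction was -2.09 (edgeR adjusted p = 1), and the first library with both treatments held 2 reads, under the floor of 3. MCM3AP-AS1 and FBXO22-AS1, both between 30.4 and 40.3 CPM in every library, changed by 0.02 and 0.01 with both treatments over untreated. IDI2-AS1 stood at -0.43 in that comparison, with an edgeR adjusted p of 0.073.

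The GC trend differed between libraries, within groups as well as between them. With this trend and that of transcript length removed from each library, 8 members were called with both treatments over untreated, 4 higher and 4 lower, in place of 5. PCNA-AS1, ZNFX1-AS1, FAS-AS1 and AKIRIN2-AS1 stayed called, UCKL1-AS1 was not, and HLA-F-AS1, IDI2-AS1, H1FX-AS1 and C17orf76-AS1 were added. The correction could act on 44 of the 51 members, those with a known GC content, and PCNA-AS1, FAS-AS1 and AKIRIN2-AS1 are not among them. Over all genes it called 3151 in place of 2023, with 1168 higher and 1983 lower in place of 1040 and 983.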

How the data were processed

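RNA was measured in 8 libraries of 4 groups. Per the labels' protocols, RNA was taken up in trizol and libraries made with a stranded total RNA kit. The deposited table holds counts, whole reads per transcript without normalisation, in 34917 rows under 22257 symbols. The tools named in the submitters' processing notes are CASAVA 1.8.2 and edgeR, and the build named is hg19. What each was used for, the aligner and any use of the strand in counting are not stated there.

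The row with the most reads stood for each symbol. Counts were tested with edgeR 4.0.16 (R 4.3.3, quasi-likelihood F test, default filter on low counts, TMM factors from 0.977 to 1.026, all 8 libraries in 1 fit with 1 mean per group, 4 residual degrees of freedom), and 14601 genes were adjusted together by the Benjamini-Hochberg method. SEs came from the log2 change and the F statistic. Libraries held between 9304569 and 11984196 reads, and floors cover counting error only. The script was tested on simulated counts. GENCODE and RefSeq (GRCh38) gave layout, length and GC content, and no coordinates were converted.

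The members, lists, motifs and alternatives were chosen with earlier results of these data known. Named were USP6, members called in a comparison, the 3 smallest p in each, the 10 highest mean CPM and those next to the read limit, each with its sense gene. HLA-F-AS1, LPP-AS2, ZEB1-AS1, THAP7-AS1, H1FX-AS1, the other sense genes and the noncoding RNAs named at the end were chosen after their values were seen. Alternatives were DESeq2 1.42.0, relative log expression factors, other filters, summed rows, only the groups compared, a replicate block, a GC and length correction (loess, span 0.3) and each library left out, where the remaining library of a group is taken to vary as much as those of other groups do. A crossed block and the transcript that the authors' table marks for each symbol were added after seeing the data.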

Additional observations from a re-analysis of the deposited data

How the results depend on the processing

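The count of called antisense RNAs was 0 for interferon over untreated, and 1 by DESeq2, with only the groups compared and with the GC and length correction. For doxycycline over untreated it was 0, and 1 by DESeq2 and with the correction, and leaving out each library in turn gave 0 to 1. For both treatments over doxycycline the correction gave 2 and for both treatments over interferon 1, where the main count was 0 in each. The members called with the correction in these comparisons were PCNA-AS1, FAS-AS1 and AKIRIN2-AS1. They have no known GC content, and their log2 changes were the same as in the reported fit. These extra calls therefore do not come from a removed GC or length trend of those members. For both treatments over untreated the count was 5, and it was 2 by DESeq2, 8 with the correction, and 0 to 5 with each library left out: 0 without replicate 1 of both treatments, 2 without untreated replicate 1 and 1 without untreated replicate 2. Of all genes, 2023 were called in that comparison, 1828 by DESeq2, 712 without replicate 1 of both treatments, and 862 and 1018 without untreated replicates 1 and 2. The sense genes called in that comparison were 13, and 4 to 15 with each library left out. The cause of these moves was not tested. None of the changes whose size was followed through these settings was reversed. Small changes, such as those of PEG3-AS1 and PEG3, were not followed in this way.

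Same-numbered replicates did not pair. Correlations of their deviations were 0.451 between both treatments and doxycycline and 0.337 between interferon and untreated, but -0.353, -0.338, -0.116 and -0.122 between groups with and without doxycycline, so the replicate number was no block in the reported fit. With a replicate block the count for both treatments over untreated was 4, without UCKL1-AS1, and it was 0 in the other 5 comparisons. A block with the numbers crossed between groups with and without doxycycline, chosen after seeing the data, gave 2 for interferon, 1 for doxycycline, 3 for both treatments over doxycycline, 3 for both treatments over interferon and 10 for both treatments over untreated, beside 1117, 1252, 1864, 1497 and 4734 of all genes in the same order.

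The limits are depth, with a median of 328 reads per member over 8 libraries, and 2 libraries per group. Many calls rest on replicate 1 of both treatments and on the untreated libraries, which also differ in their GC trend. For the 7 members without a known GC content the correction is void. Whole-table counts with it were 1003 in place of 310 for interferon, 555 in place of 119 for doxycycline, 1468 in place of 486 for both treatments over doxycycline, 589 in place of 196 for both treatments over interferon and 48 in place of 25 for the interaction.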

Other observations

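Other long noncoding RNAs changed beside the antisense ones. NEAT1, the scaffold RNA of nuclear paraspeckles, read 79.4 and 108 CPM with both treatments, 59.7 and 62 CPM with doxycycline, 73.7 and 45.6 CPM with interferon, and 49.3 and 37.8 CPM in untreated cells. It rose by 1.10 ± 0.21 on the log2 scale with both treatments over untreated (edgeR adjusted p = 0.0078), a call lost without untreated replicate 2 at 0.92. MALAT1, an RNA of nuclear speckles, read 2803 and 4435 CPM with both treatments, 2605 and 2551 CPM with doxycycline, 2154 and 1960 CPM with interferon, and 1888 and 1934 CPM in untreated cells. It rose by 0.92 ± 0.17 with both treatments over untreated (edgeR adjusted p = 0.0059) and kept that call with each library left out, at changes from 0.56 to 1.22. Of 17 tested RNAs in a list of well known noncoding RNAs, 3 rose and 3 fell in that comparison (35.3%), against 13.9% of all genes. GAS5 was among those that rose, at 0.34 (edgeR adjusted p = 0.037). Its call was lost without either untreated library, either interferon library or replicate 1 of both treatments, at changes from 0.25 to 0.38. It was also lost with only the groups compared and with summed rows. RMRP, the RNA of the ribonuclease MRP, was among those that fell, with -0.84 (edgeR adjusted p = 0.023), and at -0.18 it was not called with the GC and length correction. It also lost its call without either untreated library, either interferon library or replicate 1 of both treatments, at changes from -0.91 to -0.52.

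MIR155HG, the precursor of miR-155, read 4.54 and 3.26 CPM with both treatments, 1.08 and 1.44 CPM with doxycycline, 1.5 and 1.63 CPM with interferon, and 1.14 and 1.61 CPM in untreated cells. Its libraries with both treatments stood above all others, and it rose by 1.49 ± 0.32 over untreated (edgeR adjusted p = 0.014), a call lost by DESeq2 (adjusted p = 0.079), without untreated replicate 1 at 1.27 and without replicate 1 of both treatments at 1.24. SNHG13 read 40.7 and 41.5 CPM with both treatments, 75.8 and 67.8 CPM with doxycycline, 48.2 and 55.7 CPM with interferon, and 81.3 and 88.3 CPM in untreated cells. Both groups with interferon lay below both groups without it. SNHG13 fell by 1.04 with both treatments over untreated (SE 0.11, edgeR adjusted p = 0.0001), by 0.81 with both treatments over doxycycline (SE 0.11, edgeR adjusted p = 0.0014) and by 0.71 with interferon over untreated (SE 0.11, edgeR adjusted p = 0.0042). The last call was lost without untreated replicate 2 at -0.64 and without interferon replicate 1 at -0.6. With both treatments over untreated 2 of the 7 tested MIR host genes rose and 2 fell (57.1%), 1 of 12 SNHG genes fell (8.33%) and 1 of 30 LINC symbols fell (3.33%), beside the 13.9% of all genes.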
